A study of Rattus norvegicus with 24 samples.

Results

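A set of 6 genes of the vessel wall's mural cells, the smooth muscle cells and pericytes that surround the endothelium, was followed in rat mesenteric arteries: Rgs5, Pdgfrb, Cnn1, Tpm1, Vcl and Itga8. All probes annotated with only the symbol of a gene of this set were taken, which gave 8 of the 10399 probes on the array (Pdgfrb and Cnn1 had 2 probes each), out of 6455 genes with such a probe. Each probe was kept apart, because the brightness of different probes cannot be compared. The arteries came from 12 female Sprague Dawley rats aged 5.5 weeks, all of which, the controls included, had been ovariectomised at 3 weeks of age and left to recover for 2 weeks. Intraperitoneal injections followed for 4 days: 4 rats received estradiol benzoate at 0.15 mg/kg per day, 4 received testosterone at 1 mg/kg per day, and 4 received the sesame oil vehicle. The arteries were freed of fat, veins and connective tissue, and cRNA from every rat was run on a pair of CodeLink arrays.

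Mural cells hold the tone of small arteries. In smooth muscle, actin and myosin filaments shorten the cell, tropomyosin and calponin sit on the actin filaments, and vinculin ties those filaments to integrins that grip the matrix outside. Pericytes and young smooth muscle cells are recruited to vessels by endothelial PDGF-B acting on its receptor Pdgfrb, and Rgs5, abundant in pericytes, shortens the signal of G-protein-coupled receptors for vasoconstrictors. Many contractile genes share a short promoter element, the CArG box, that binds serum response factor.

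RefSeq promoter windows of 300 bases around the annotated start (build GRCr8) were held for 5 of the 6 genes, all but Pdgfrb. The CArG box, whose sequence reads alike on both strands, had no exact match in any of the 5, against 548 of 33469 windows of this length in the table (1.64%). When 1 letter was allowed to differ, a search chosen after the exact result was known, the Tpm1 window was the only one of the 5 with a match, and it held 2. Such windows occurred in 21.3% of all promoters in the table. Only boxes that lay whole within a window were counted. The Vcl window opens with cttataagg, which is the box without its first letter. The letter before it lies outside the window, so the lack of a match for Vcl depends on where the window starts. The Tpm1 window is printed for its 2 near matches, in capitals, which begin at positions -195 and -55 relative to the start. The windows of Rgs5 and Cnn1, the pair whose levels are set side by side further on, are printed beside it. Tpm1 lay at chr8:76543366-76543665 on the minus strand, Rgs5 at chr13:84380827-84381126 and Cnn1 at chr8:28908187-28908486, both on the plus strand.
Tpm1: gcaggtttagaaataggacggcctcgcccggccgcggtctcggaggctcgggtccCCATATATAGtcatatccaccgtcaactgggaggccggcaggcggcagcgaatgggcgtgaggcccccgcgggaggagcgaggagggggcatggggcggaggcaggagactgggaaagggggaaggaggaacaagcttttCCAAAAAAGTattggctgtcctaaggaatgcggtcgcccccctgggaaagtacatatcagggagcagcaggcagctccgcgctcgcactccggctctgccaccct
Rgs5: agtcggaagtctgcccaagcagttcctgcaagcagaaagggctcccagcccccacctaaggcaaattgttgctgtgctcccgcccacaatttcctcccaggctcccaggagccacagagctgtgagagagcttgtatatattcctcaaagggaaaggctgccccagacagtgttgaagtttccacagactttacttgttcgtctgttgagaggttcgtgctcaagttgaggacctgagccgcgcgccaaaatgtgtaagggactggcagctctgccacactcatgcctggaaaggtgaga
Cnn1: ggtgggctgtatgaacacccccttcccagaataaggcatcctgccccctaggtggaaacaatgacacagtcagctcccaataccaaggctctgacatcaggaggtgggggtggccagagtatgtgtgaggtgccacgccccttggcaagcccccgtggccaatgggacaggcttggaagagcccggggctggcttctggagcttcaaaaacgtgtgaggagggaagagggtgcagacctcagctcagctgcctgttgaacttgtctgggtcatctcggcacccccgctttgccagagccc
The windows show which letters lie near each start, and no binding was measured here.

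The deposited intensities were linear values scaled so that the array medians lay between 0.926 and 0.951. Duplicate arrays of an animal correlated at 0.976 to 0.993 over probes. Between 152 and 665 probes per array were blank, and 327 values lay at or below 0. A level below is the geometric mean of an animal's 2 arrays in these scaled units, and differences are log2 differences between group means with limma's standard error.

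Several smooth muscle probes were too often blank to be compared. Of 11 smooth muscle markers, 4 had a probe with that symbol and 2 of them, Cnn1 and Smtn (smoothelin, a marker of contractile smooth muscle), could be tested. Myh11, the smooth muscle myosin heavy chain, was blank on 23 of 24 arrays and read 57.3 on the remaining array. Tagln, the actin-binding protein transgelin, was blank on 16 arrays, 7 of estradiol benzoate, 7 of testosterone and 2 of vehicle animals, and read 49.4 to 71.3 on the others. Blanks were most common among bright probes. After the probes were divided into 10 equal bins by the mean of the values they had, 9.35% of the cells of the brightest bin were blank, against 1.57% to 2.60% in the other bins, and 27.2% of the cells were blank among the brightest 100 probes. What a blank cell stands for was not given in the sources used here. All 8 pericyte markers that had a probe, of 10 listed, were measured in every animal.

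**Figure D1:**
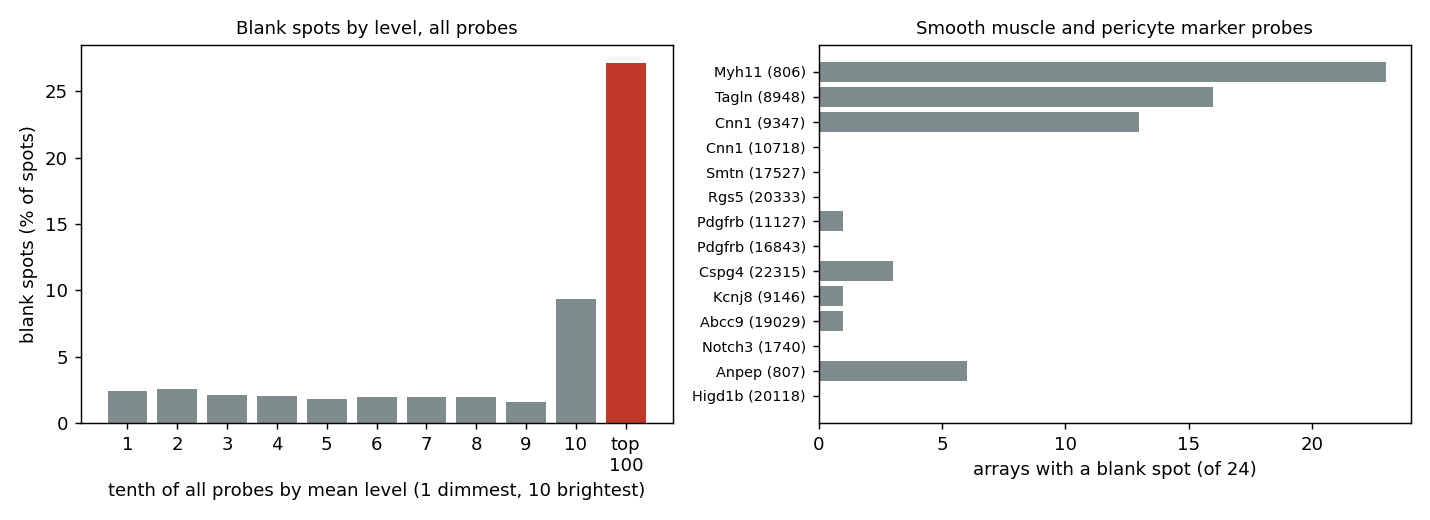
Left, percentage of spots that were blank (vertical axis) in each of 10 bins of probes ordered by mean level (horizontal axis, dimmest to brightest) and, in red, in the brightest 100 probes; right, number of the 24 arrays on which each smooth muscle or pericyte marker probe was blank. The brightest bin reached 9.35% and the brightest 100 probes 27.2%, and Myh11 was blank on 23 arrays.

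None of the 7 member probes that could be tested passed an adjusted p of 0.05 in any comparison (limma, Benjamini-Hochberg over 10228 probes). At an unadjusted p under 0.05, estradiol benzoate against vehicle had 2 of 7 member probes (Rgs5, lower, and the bright Pdgfrb probe, higher), beside 13.5% of all probes. Testosterone against vehicle had 0 of 7, beside 14% of all probes, and estradiol benzoate against testosterone had 1 of 7 (Pdgfrb, higher), beside 4.13%. Over all probes the adjusted threshold was passed by 0 (0%), 5 (0.0489%) and 3 (0.0293%) in these comparisons. Animals of the 2 groups did not overlap for 1 member probe under estradiol benzoate against vehicle (Rgs5), 0 under testosterone against vehicle and 1 under estradiol benzoate against testosterone (Pdgfrb), beside 7.69%, 5.49% and 3.01% of the probes measured in all their animals. Both hormone groups were set against the same vehicle animals, so their differences from vehicle are not independent. With 4 animals against 4, an exact two-sided permutation test has 70 arrangements and cannot go below p = 0.0286.

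**Figure D2:**
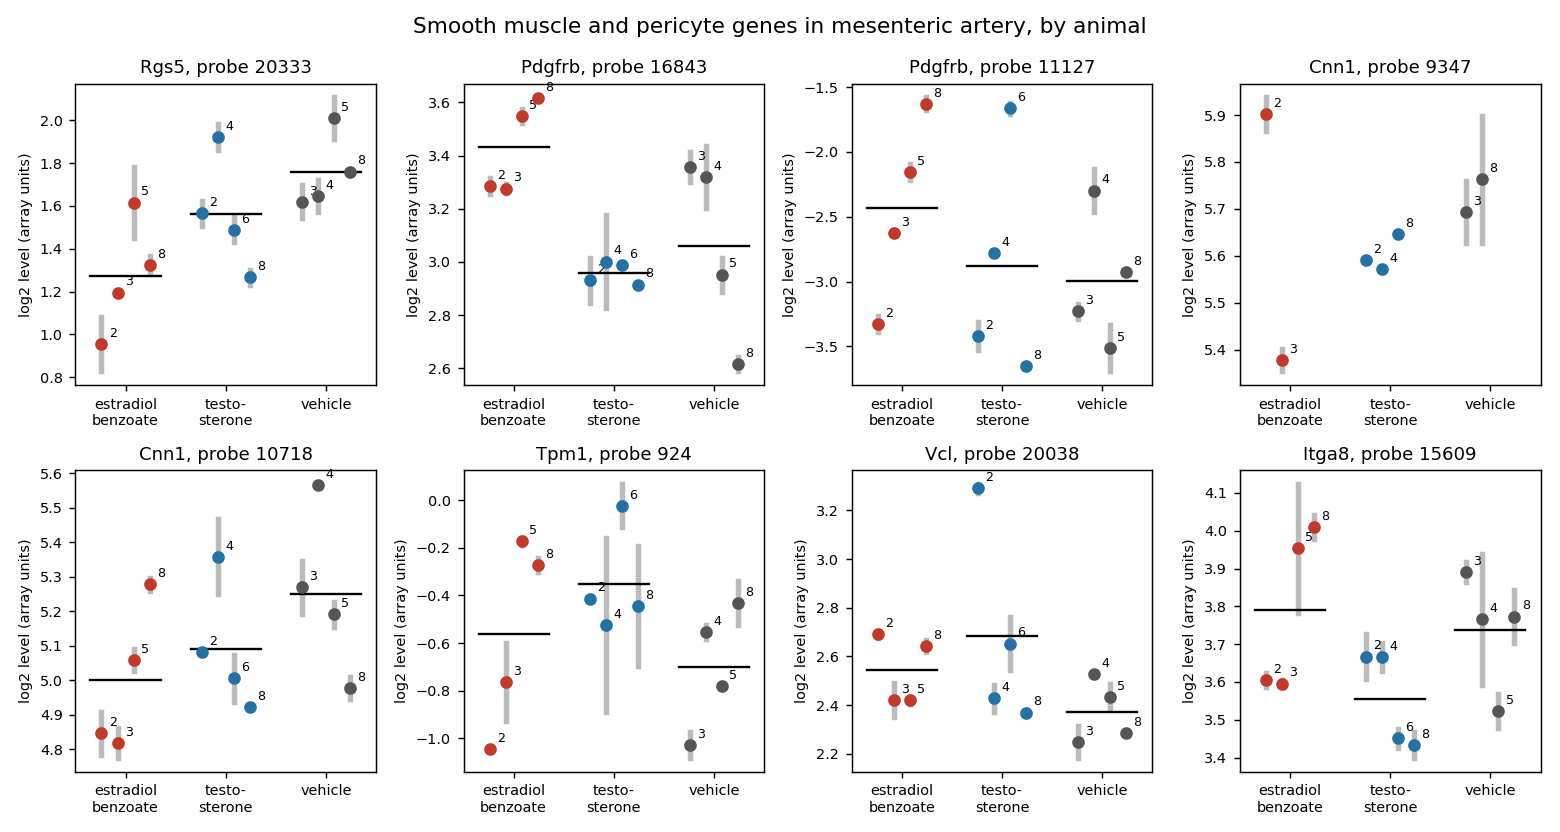
Level of each member probe (vertical axes, log2 of the scaled intensity) in every animal of the estradiol benzoate, testosterone and vehicle groups, each point 1 animal with its number, each grey line the span of its 2 arrays and each black bar the mean of 4 animals; the Cnn1 probe measured in only 7 animals has no bars. The 4 estradiol benzoate animals lie below the 4 vehicle animals for Rgs5, and above the 4 testosterone animals for the bright Pdgfrb probe.

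Rgs5 encodes a regulator of G-protein signalling that speeds the switching off of the G proteins behind vasoconstrictor receptors. Its level (probe 20333) was 1.94, 2.29, 3.07 and 2.50 in estradiol benzoate animals 2, 3, 5 and 8. It was 2.96, 3.79, 2.81 and 2.41 in testosterone animals 2, 4, 6 and 8, and 3.07, 3.13, 4.03 and 3.39 in vehicle animals 3, 4, 5 and 8. Every estradiol benzoate animal lay below every vehicle animal, although animal 5 of the first group, at 3.065, missed the lowest vehicle animal, at 3.072, by less than the SD of duplicate arrays of this probe (0.114 on the log2 scale). The testosterone animals spanned both groups, with 3 of 4 below the lowest vehicle animal. Rgs5 differed by -0.49 on the log2 scale after estradiol benzoate against vehicle (SE 0.17, 95% confidence interval -0.85 to -0.13), a level 0.713 times that of vehicle animals. Limma's unadjusted p was 0.0127 and its adjusted p 0.282. The exact permutation p was 0.0286, the smallest possible, and 0.300 after adjustment over the 21 member tests. The difference was -0.20 (SE 0.17) for testosterone against vehicle, with limma's adjusted p at 0.608, and -0.32 without testosterone animal 4 or -0.10 without testosterone animal 8. It was -0.29 (SE 0.17) for estradiol benzoate against testosterone, with an adjusted p of 0.999. Without each animal in turn that difference ran from -0.40 to -0.17, the latter without testosterone animal 4. In whole arteries, fewer cells of a type and less RNA per cell cannot be told apart. Without estradiol benzoate animal 3 and vehicle animal 5, which stood apart in markers of other tissues, the difference from vehicle was -0.38 with an unadjusted p of 0.0809.

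Pdgfrb encodes the receptor tyrosine kinase through which PDGF-B recruits and maintains mural cells. Its bright probe (16843) read 9.76, 9.69, 11.7 and 12.3 in estradiol benzoate animals 2, 3, 5 and 8. It read 7.62, 8.01, 7.93 and 7.54 in testosterone animals 2, 4, 6 and 8, and 10.2, 9.99, 7.74 and 6.12 in vehicle animals 3, 4, 5 and 8. All estradiol benzoate animals lay above all testosterone animals, while the vehicle animals ran from below the testosterone group into the estradiol benzoate group. The testosterone animals were close to each other, with an SD of 0.04 on the log2 scale, against 0.18 among estradiol benzoate and 0.35 among vehicle animals. Estradiol benzoate exceeded testosterone by 0.47 (SE 0.15, 95% confidence interval 0.14 to 0.81), with limma's unadjusted p at 0.0103 and its adjusted p at 0.857. The exact permutation p of that difference was 0.0286, and 0.300 after adjustment over the 21 member tests. Estradiol benzoate exceeded vehicle by 0.37 (SE 0.15), with limma's unadjusted p at 0.0343, its adjusted p at 0.329 and the exact permutation p at 0.171. That difference was 0.22 without vehicle animal 8, the lowest animal, which moved it by more than 1.5 times. Testosterone differed from vehicle by -0.10 (SE 0.15), with an adjusted p of 0.795 from limma, and by -0.25 without vehicle animal 8 and -0.0038 without vehicle animal 3.

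The other Pdgfrb probe (11127) was dim. It read 0.0997, 0.162, 0.225 and 0.324 in estradiol benzoate animals 2, 3, 5 and 8. It read 0.0934, 0.145, 0.316 and 0.0796 in testosterone animals 2, 4, 6 and 8, the last on 1 array only, and 0.106, 0.203, 0.0875 and 0.132 in vehicle animals 3, 4, 5 and 8. The 3 groups overlapped throughout. Its SD among animals of a group was 0.727 on the log2 scale, against 0.227 for the bright probe, while duplicate arrays of an animal differed by an SD of 0.126. The duplicates came from the same cRNA, so this SD leaves out dissection, extraction and labelling. Its differences were 0.56 for estradiol benzoate against vehicle, 0.11 for testosterone against vehicle and 0.45 for estradiol benzoate against testosterone, each with an SE of 0.46 and all with a 95% confidence interval that spans 0. The testosterone difference turned to -0.29 without testosterone animal 6 and to -0.06 without vehicle animal 5. The first difference was 0.29 without estradiol benzoate animal 8 and 0.86 without animal 2, and the last was 0.18 without estradiol benzoate animal 8 and 0.85 without testosterone animal 6. Over the 12 animals the 2 Pdgfrb probes gave r = 0.484 (permutation p = 0.111, adjusted 0.222 over the 2 genes with a pair of probes) and Spearman's coefficient = 0.615 (permutation p = 0.0382, adjusted 0.0764). Without the 2 animals farthest from the median of the bright probe, r was 0.368.

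Cnn1 encodes calponin 1, an actin-binding protein of differentiated smooth muscle. Its probe 10718 had a value on all 24 arrays. It read 28.8, 28.2, 33.3 and 38.8 in estradiol benzoate animals 2, 3, 5 and 8. It read 33.8, 41.0, 32.1 and 30.3 in testosterone animals 2, 4, 6 and 8, and 38.6, 47.4, 36.5 and 31.5 in vehicle animals 3, 4, 5 and 8. Estradiol benzoate animals 2 and 3 lay below the lowest vehicle animal, and the 3 groups overlapped. The differences were -0.25 for estradiol benzoate against vehicle, -0.16 for testosterone against vehicle and -0.09 for estradiol benzoate against testosterone, each with an SE of 0.15. Limma's adjusted p was 0.461, 0.649 and 0.999 in that order. Without vehicle animal 4, the highest of the 12, the differences from vehicle were -0.15 and -0.05. The third difference was -0.0023 without testosterone animal 4 and -0.18 without estradiol benzoate animal 8. With quantile normalization the 3 differences were -0.10, -0.06 and -0.04.

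The other Cnn1 probe (9347) was blank on 13 of 24 arrays, 4 of estradiol benzoate, 5 of testosterone and 4 of vehicle animals, and was not tested. It read 59.8 and 41.6 in estradiol benzoate animals 2 and 3, 48.2, 47.6 and 50.1 in testosterone animals 2, 4 and 8, each on 1 array, and 51.7 and 54.3 in vehicle animals 3 and 8. The 5 animals in which it was blank on both arrays read 32.1 to 47.4 on probe 10718 (median 36.5), and the 7 in which it had a value read 28.2 to 41.0 (median 31.5). Over those 7 animals the 2 probes gave r = -0.0596 (permutation p = 0.889) and Spearman's coefficient = -0.0714 (permutation p = 0.906), and r = -0.432 without the 2 farthest animals. The adjusted values over the 2 genes with a pair of probes were the same, 0.889 and 0.906.

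Tpm1 encodes an alpha-tropomyosin, which winds along actin filaments and steadies them. Its level (probe 924) was 0.485, 0.589, 0.888 and 0.827 in estradiol benzoate animals 2, 3, 5 and 8, the first on 1 array only. It was 0.751, 0.696, 0.984 and 0.735 in testosterone animals 2, 4, 6 and 8, and 0.490, 0.681, 0.582 and 0.742 in vehicle animals 3, 4, 5 and 8. All 4 testosterone animals lay above the vehicle mean, and animals 4 and 8 of them lay below the highest vehicle animal. The estradiol benzoate animals held both the lowest value of the 12 and the second highest. Testosterone exceeded vehicle by 0.35 (SE 0.20), with limma's adjusted p at 0.461 and the exact permutation p at 0.0857. This excess was 0.51 with AA arrays only (limma's unadjusted p 0.0397, adjusted 0.401). With AB arrays only it was 0.18 (limma's unadjusted p 0.332, adjusted 0.684). The difference was 0.14 (SE 0.20) for estradiol benzoate against vehicle and -0.21 (SE 0.20) for estradiol benzoate against testosterone, with limma's adjusted p at 0.787 and 0.999. Against vehicle, the estradiol benzoate difference was 0.0049 without estradiol benzoate animal 5 and 0.30 without animal 2, and against testosterone it was -0.34 and -0.05 without those animals. Duplicate arrays of this probe differed by an SD of 0.212 against a median of 0.119 over all probes.

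Vcl encodes vinculin, which couples integrin adhesions to the actin cytoskeleton. Its level (probe 20038) was 6.46, 5.36, 5.35 and 6.25 in estradiol benzoate animals 2, 3, 5 and 8. It was 9.78, 5.38, 6.29 and 5.16 in testosterone animals 2, 4, 6 and 8, and 4.75, 5.76, 5.40 and 4.87 in vehicle animals 3, 4, 5 and 8. Testosterone animal 2 stood above the other 11, on both of its arrays (9.90 and 9.66), and the groups otherwise overlapped. Testosterone exceeded vehicle by 0.31 (SE 0.18), with limma's adjusted p at 0.451, and by 0.11 without testosterone animal 2. Estradiol benzoate exceeded vehicle by 0.17 (SE 0.18, adjusted p 0.684 from limma). Estradiol benzoate against testosterone gave -0.14 (SE 0.18) with that animal and 0.06 without it.

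Itga8 encodes the integrin alpha 8 chain, which pairs with beta 1 and binds matrix proteins such as fibronectin, tenascin C, osteopontin and nephronectin. Its level (probe 15609) was 12.2, 12.1, 15.5 and 16.1 in estradiol benzoate animals 2, 3, 5 and 8. It was 12.7, 12.7, 10.9 and 10.8 in testosterone animals 2, 4, 6 and 8, and 14.8, 13.6, 11.5 and 13.7 in vehicle animals 3, 4, 5 and 8. The testosterone animals were the lowest as a group, all below the vehicle mean, and overlapped both other groups. Estradiol benzoate exceeded testosterone by 0.24 (SE 0.12), with limma's unadjusted p at 0.0818 and its adjusted p at 0.999. The difference was 0.05 (SE 0.12) for estradiol benzoate against vehicle and -0.18 (SE 0.12) for testosterone against vehicle, with limma's adjusted p at 0.872 and 0.527. Without estradiol benzoate animal 5 or 8, or without vehicle animal 5, the difference between estradiol benzoate and vehicle took the opposite sign, between -0.0205 and -0.0017 on the log2 scale.

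**Figure D3:**
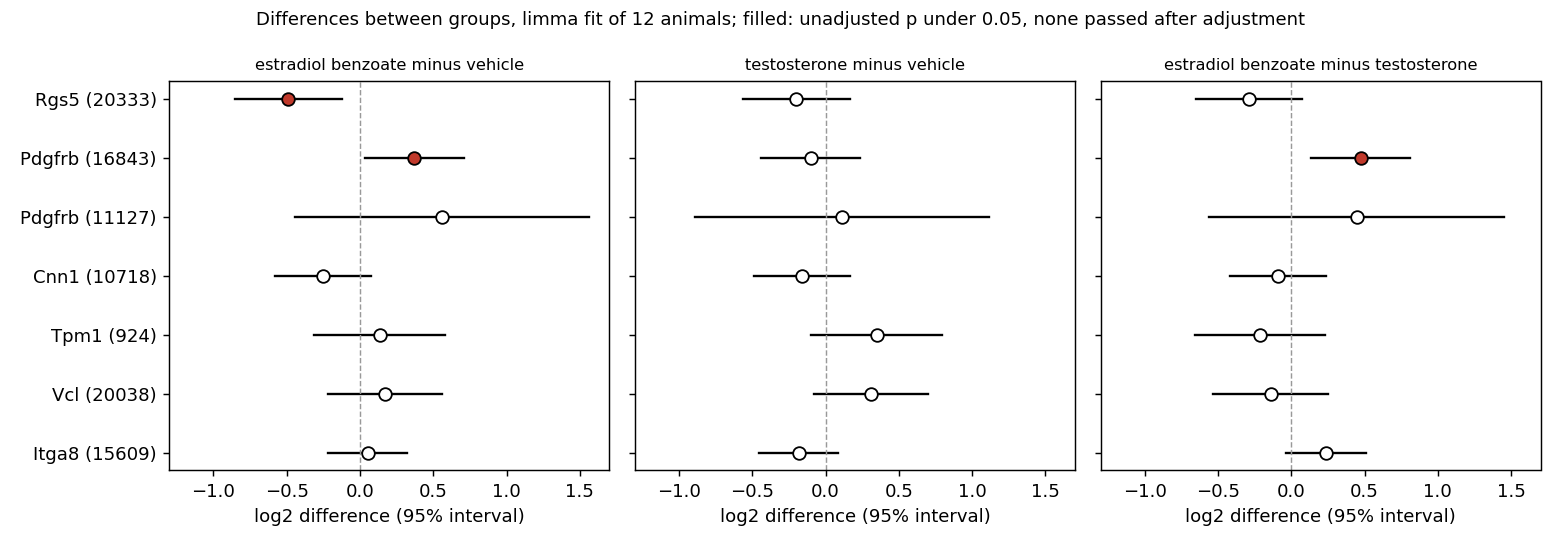
Log2 difference of each tested member probe with its 95% confidence interval (horizontal axis) for estradiol benzoate against vehicle, testosterone against vehicle and estradiol benzoate against testosterone. The interval leaves out 0 for Rgs5 and the bright Pdgfrb probe in the first comparison and for the bright Pdgfrb probe in the last, before adjustment for multiple tests.

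No pair of members passed as correlated across the 12 animals, which with so few animals does not show that they vary apart. Of the 15 pairs of genes, using probe 16843 for Pdgfrb and 10718 for Cnn1, Pearson's r ran from -0.363 to 0.621, 2 pairs had an unadjusted permutation p under 0.05 and 0 passed after Benjamini-Hochberg adjustment (adjusted p 0.363 to 0.936). Pdgfrb and Itga8 gave r = 0.621 (permutation p = 0.0313, adjusted 0.363) and Spearman's coefficient = 0.615 (permutation p = 0.0371, adjusted 0.278). Without the 2 animals farthest from the median of Pdgfrb, r was 0.794, and after each group's mean was taken out it was 0.512. Without vehicle animal 8 alone, which had the lowest Pdgfrb of the 12, r was 0.855 and the adjusted permutation p was 0.0141, so the call depended on that animal. Without estradiol benzoate animal 8 alone, the highest for both genes, r fell to 0.487 (adjusted permutation p = 0.859). With AB arrays only it was 0.523 (adjusted permutation p = 0.403). Rgs5 and Cnn1 gave r = 0.580 (permutation p = 0.0484, adjusted 0.363) and Spearman's coefficient = 0.643 (permutation p = 0.0284, adjusted 0.278). Without the 2 animals farthest from the median of Rgs5, r was 0.522, and after each group's mean was taken out it was 0.409.

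Pdgfrb and Cnn1 had the highest r of the 15 pairs once the group means were taken out. Their pooled r was 0.250 (permutation p = 0.432, adjusted 0.936) and Spearman's coefficient was 0.378 (permutation p = 0.227, adjusted 0.851), with r at 0.0674 without the 2 farthest animals. Within groups, r was 0.770 (exact permutation p = 0.00817 over 13824 arrangements within groups, adjusted 0.123 over the 15 pairs). Pdgfrb was higher and Cnn1 lower in the estradiol benzoate group mean than in the vehicle mean. Cnn1 and Itga8 had the next value within groups, r = 0.615 (exact permutation p = 0.0634, adjusted 0.476). Pdgfrb and Itga8 followed with r = 0.512 (exact permutation p = 0.105, adjusted 0.525). Over the 15 pairs, r within groups ran from -0.0901 to 0.770 and was above 0 in most. Rgs5 and Pdgfrb, the 2 pericyte genes of the set, gave r = -0.363 (permutation p = 0.246, adjusted 0.922) with all animals, Spearman's coefficient = -0.182 (permutation p = 0.573, adjusted 0.932), r = -0.291 without the 2 farthest animals, and r = 0.0705 within groups.

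**Figure D4:**
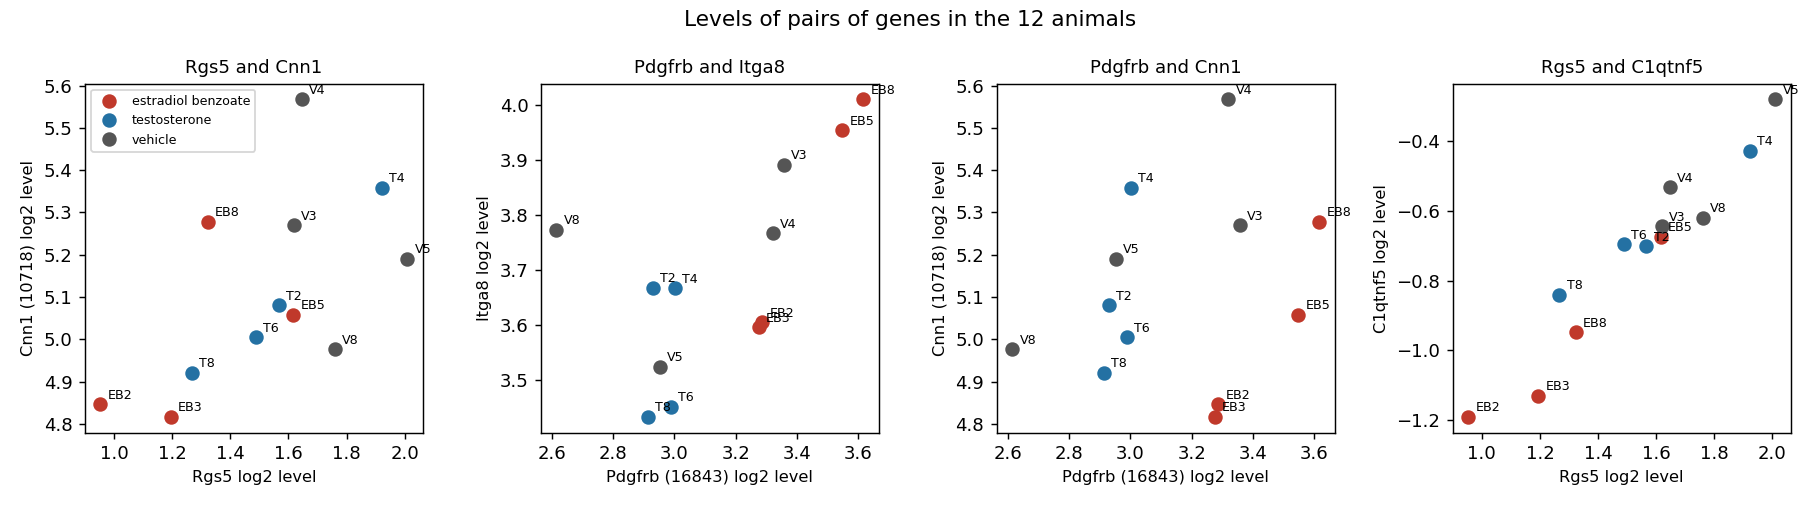
Log2 levels of Rgs5 and Cnn1, Pdgfrb and Itga8, Pdgfrb and Cnn1, and Rgs5 and C1qtnf5 plotted against each other, each point 1 of 12 animals coloured by group (EB estradiol benzoate, T testosterone, V vehicle, with the animal number). Over all animals r was 0.580, 0.621, 0.250 and 0.966 in that order, the last for a gene picked for its likeness to Rgs5.

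For each member, the 3 genes whose levels followed it most closely over the 12 animals were picked from 7036 probes, as a description with no test, since the highest of so many values is large by selection. Rgs5 was followed by C1qtnf5 (r = 0.966, and 0.946 after group means were taken out), Islr (r = 0.934) and Wls (r = 0.898). C1qtnf5 encodes a secreted C1q-domain protein, Islr a surface protein of mesenchymal cells and Wls the carrier that brings Wnt proteins to the cell surface. These 3 also had lower means under estradiol benzoate than under vehicle, by -0.46 (SE 0.13), -0.55 (SE 0.13) and -0.27 (SE 0.09) on the log2 scale, with limma's adjusted p at 0.220, 0.164 and 0.279. Having been picked for following Rgs5, they add nothing independent to its difference. Cnn1 was followed by Slc25a4, the mitochondrial ADP/ATP carrier of muscle (r = 0.894, and 0.958 after group means were taken out), by Map6 (r = 0.886) and by Tgfb3 (r = 0.865). Map6 was very dim, with levels of 0.0064 to 0.0331 against array medians of 0.926 to 0.951, so its r is of little weight.

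Pdgfrb was followed by Entrep1 (r = 0.851), Dapk1 (r = 0.849) and Hpcal1 (r = 0.840), and Tpm1 by Ldaf1 (r = 0.873), Wrnip1 (r = 0.872) and Sgce (r = 0.866). Vcl was followed by Git1 (r = 0.937), Thap11 (r = 0.920) and Atp1b2 (r = 0.917) with Spearman's coefficient at 0.783, 0.888 and 0.797. Testosterone animal 2 was the highest animal for Vcl and also for Git1, Thap11 and Atp1b2. Itga8 was followed by Taf11 (r = 0.806), Abra (r = 0.800) and Lmcd1 (r = 0.792). Lmcd1 encodes a LIM-domain protein.

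Genes of the same pathways, 90 in 7 lists with the members left out, gave 0 calls at an adjusted p under 0.05 in any comparison (limma). At an unadjusted p under 0.05, 6 were higher and 10 lower under estradiol benzoate than vehicle, 4 higher and 5 lower under testosterone than vehicle, and 6 higher and 3 lower under estradiol benzoate than testosterone. These were 17.8%, 10% and 10% of the 90 genes, beside 13.5%, 14% and 4.13% of all probes. Around Rgs5, 12 other RGS genes had a median difference of -0.06 under estradiol benzoate against vehicle, with 6 higher and 6 lower, beside a median of -0.01 over all probes. Rgs4, another small RGS protein, differed by -0.53 (SE 0.19, adjusted p 0.297 from limma) in that comparison and by -0.10 under testosterone against vehicle. Rgs7 differed by 0.50 and Rgs2, which curbs Gq signalling in vascular muscle, by 0.07 under estradiol benzoate against vehicle. Under testosterone against vehicle Rgs7 differed by 0.23 and Rgs2 by -0.29, with limma's adjusted p at 0.597 and 0.374. Under estradiol benzoate against testosterone they differed by 0.27 and 0.37.

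Around Pdgfrb, the ligand gene Pdgfa was lower in mean under both hormones, by -0.23 (SE 0.08) each, with limma's adjusted p at 0.290 under estradiol benzoate and 0.289 under testosterone. Pdgfc, another ligand gene, was higher in mean, by 0.40 under estradiol benzoate and 0.55 under testosterone (SE 0.18 each, adjusted p 0.368 and 0.264 from limma). Of the 11 genes of this list, 4 were higher and 7 lower under estradiol benzoate than vehicle. Stat3 differed by 0.12 and -0.12 from vehicle. Among 12 other pericyte genes, 8 were higher and 4 lower in mean under estradiol benzoate than vehicle, with a median difference of 0.02. Gucy1a1, a subunit of the nitric oxide receptor, differed by -0.36 (SE 0.13, adjusted p 0.294 from limma), Ebf1 by -0.40 and Kcnj8, a pore subunit of the ATP-sensitive potassium channel, by 0.08. Under testosterone against vehicle these genes differed by -0.04, -0.25 and 0.22, with limma's adjusted p at 0.916, 0.586 and 0.321.

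Around Cnn1 and Tpm1, 12 contractile genes had medians of -0.02, -0.10 and 0.02 in the 3 comparisons. Csrp2, a LIM protein of smooth muscle, was 0.49 higher under estradiol benzoate than testosterone (SE 0.15, adjusted p 0.679 from limma), Cnn2 differed from vehicle by -0.25 and -0.17, and Tagln2 by -0.05 and -0.21, under estradiol benzoate and testosterone. Among 14 regulators of serum response factor and myocardin, 10 were lower in mean under estradiol benzoate and 11 under testosterone than under vehicle. Their median differences were -0.10 and -0.09, beside -0.01 over all probes in each comparison. Both counts rest on the same vehicle animals. Klf4, a repressor of contractile genes, had the smallest F-test p of the genes in these lists, with a testosterone difference of -0.54 (SE 0.09) and limma's adjusted p at 0.109. Its estradiol benzoate difference was -0.16 (SE 0.09). Smad4 differed by -0.38 and -0.42, and Smad3 by -0.19 and -0.17, under estradiol benzoate and testosterone against vehicle.

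Around Vcl and Itga8, 19 genes of the focal adhesion list had medians of 0.02, 0.03 and -0.02. That list also held genes of cell-cell junctions, Cdh2 among them. The 10 integrins and ligands of integrin alpha 8 had medians of 0.22, 0.10 and 0.06. Cdh2, the N-cadherin that joins smooth muscle cells, differed by 0.47 and 0.35 (SE 0.15 each), Ptk2, the focal adhesion kinase, by -0.30 and -0.21, and Parva by 0.07 and 0.23, under estradiol benzoate and testosterone against vehicle. The alpha 8 ligand genes differed in direction: Spp1 (osteopontin) by 0.51 and -0.19, Fn1 (fibronectin) by 0.28 and 0.45, and Tnc (tenascin C) by -0.91 and 0.10. Their adjusted p from limma ran from 0.243 for Fn1 under testosterone to 0.925 for Tnc under testosterone.

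None of the relations between members and markers of other cell types passed the test. Of 72 relations between 6 genes and 12 marker lists, 10 had an unadjusted permutation p under 0.05 and 0 passed after adjustment (lowest adjusted p 0.333 for Pearson's r and 0.314 for Spearman's coefficient). Each relation used the mean log2 deviation of a list's markers from their means over the 12 animals. The sums given beside them are of linear levels, in which bright probes weigh most, and can rank the animals differently. Rgs5 followed the fibroblast list with r = 0.595 (permutation p = 0.0423) and Spearman's coefficient = 0.643 (permutation p = 0.0276), with r at 0.786 without the 2 farthest animals and 0.203 after group means were taken out. The 4 fibroblast markers measured in every animal, of 12 listed, summed to 38.8 to 50.8 in estradiol benzoate, 41.1 to 58.8 in testosterone and 54.6 to 66.7 in vehicle animals, so the estradiol benzoate animals lay below the vehicle animals as they did for Rgs5. Their mean log2 deviation ran from -0.79 to 0.06, -0.48 to 0.45 and 0.19 to 0.51 in these groups. Pdgfrb ran against the same list, with r = -0.654 (permutation p = 0.0238) and Spearman's coefficient = -0.490 (permutation p = 0.111). For this relation r was -0.292 without the 2 farthest animals and -0.392 after group means were taken out. White adipocyte markers (8 of 16 summed) came to 127.3 to 141.9 in estradiol benzoate, 114.3 to 148.2 in testosterone and 101.5 to 121.4 in vehicle animals, and ran against Rgs5 (r = -0.586, permutation p = 0.0453, Spearman's coefficient = -0.601, permutation p = 0.0426, and r = -0.702 without the 2 farthest). Rgs5 also ran against striated muscle markers (r = -0.630, permutation p = 0.0288, Spearman's coefficient = -0.678, permutation p = 0.0186, and r = -0.734 without the 2 farthest) and brown adipocyte markers (r = -0.601, permutation p = 0.0398, Spearman's coefficient = -0.622, permutation p = 0.0345, and r = -0.493 without the 2 farthest). After group means were taken out, these values were -0.334 and -0.347, and that for white adipocyte markers was -0.300. The part of these cells in the Rgs5 and Pdgfrb differences was not tested.

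Cnn1 followed the endothelial list (r = 0.720, permutation p = 0.0083, Spearman's coefficient = 0.657, permutation p = 0.0238), with r at 0.464 without the 2 farthest animals and 0.804 after group means were taken out. The 10 endothelial markers summed, of 15 listed, came to 59.1 to 73.8 in estradiol benzoate, 65.8 to 80.6 in testosterone and 66.3 to 79.1 in vehicle animals. Vcl followed striated muscle markers (r = 0.604, permutation p = 0.0322, Spearman's coefficient = 0.608, permutation p = 0.0399, and r = 0.797 without the 2 farthest) and white adipocyte markers (r = 0.622, permutation p = 0.0204, Spearman's coefficient = 0.762, permutation p = 0.00537, and r = 0.585 without the 2 farthest). The 7 summed striated muscle markers of 15 listed came to 6.24 to 9.17 in estradiol benzoate, 6.39 to 11.2 in testosterone and 5.31 to 8.82 in vehicle animals, and testosterone animal 2, the highest for Vcl, had the highest sum, at 11.2. On the mean log2 deviation of that list, estradiol benzoate animal 3 was the highest (0.56) and testosterone animal 2 was next (0.42). Tpm1 followed lymphocyte markers (r = 0.589, permutation p = 0.0436, Spearman's coefficient = 0.650, permutation p = 0.0257, and r = 0.427 without the 2 farthest). The mean log2 deviation of these 8 markers, of 14 listed, ran from 0.03 to 0.44 in estradiol benzoate, -0.0005 to 0.32 in testosterone and -0.75 to -0.12 in vehicle animals. Pdgfrb ran against mast cell markers (r = -0.587, permutation p = 0.0465, Spearman's coefficient = -0.650, permutation p = 0.0260, and r = -0.558 without the 2 farthest). After group means were taken out, r of Pdgfrb with mast cell markers was -0.374. Pancreatic acinar markers (9 of 16) ran from 0.519 to 106 in estradiol benzoate animals, where animal 3 was the highest, against 0.436 to 2.31 in testosterone and 0.480 to 1.20 in vehicle animals. Hepatocyte markers (8 of 16) ran from 1.48 to 1.73 in estradiol benzoate and 1.07 to 1.33 in testosterone animals, against 1.48 to 33.8 in vehicle animals, where animal 5 was the highest, and 1 of these markers, Fgb, had a value at or below 0. Their part in the members' values was not tested.

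**Figure D5:**
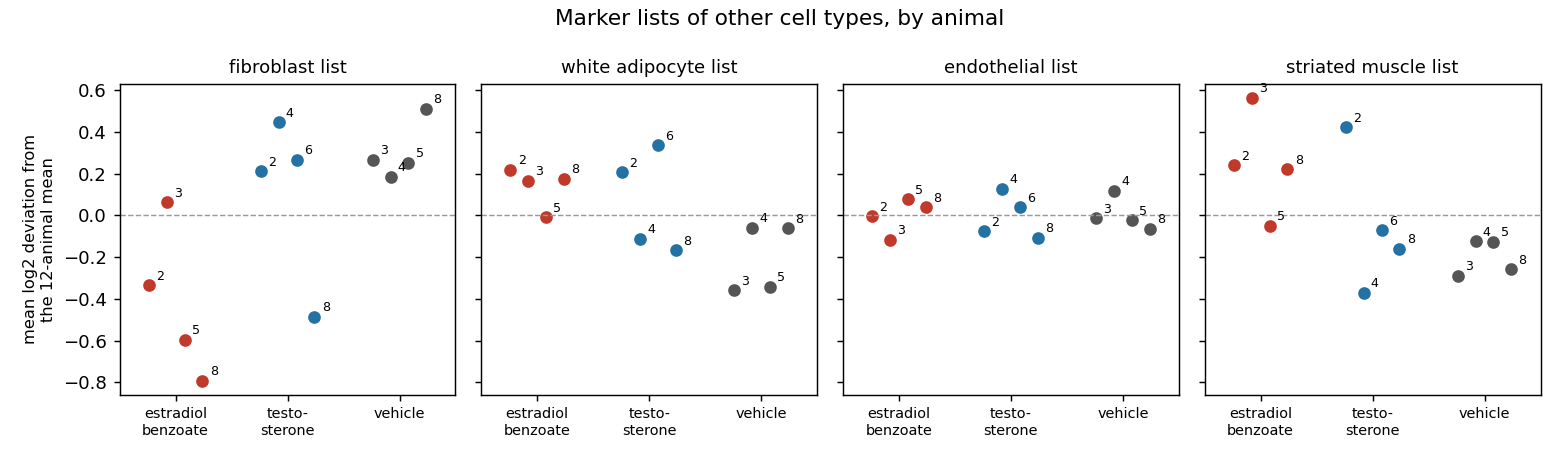
Mean log2 deviation of the genes of a marker list from their mean over the 12 animals (vertical axis) in the estradiol benzoate, testosterone and vehicle groups, for the fibroblast, white adipocyte, endothelial and striated muscle lists, each point 1 animal with its number. The vehicle animals sit highest on average for fibroblast markers and lowest for white adipocyte markers, and testosterone animal 2 and estradiol benzoate animal 3 are the highest for striated muscle markers.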

How the data were processed

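Mesenteric artery RNA of 12 rats was hybridised to 24 CodeLink arrays, with 2 arrays from the cRNA of each animal (per the labels' protocols). The authors deposited 1 linear intensity per probe and array, already scaled, with no detection flags; the scanner software, background correction and scaling were not given in the sources used here. No sequencing depth applies, and the number of arrays and animals limits the precision. Probes were named from GEO's platform annotation: 7294 had 1 gene symbol, 88 several and 3017 none, and of the first 7284 were matched by gene ID to RefSeq. Values at or below 0 were taken as missing, values were turned to log2 and the 2 arrays of an animal averaged. Limma 3.58.1 (R 4.3.3) estimated the 3 group means over the 12 animals (9 residual and 2.51 prior degrees of freedom) for the 10228 probes that 3 or more animals per group had measured, and p-values were adjusted by Benjamini-Hochberg over all of them at a threshold of 0.05. Permutation tests were run in Python 3.11.15 with NumPy 2.4.6, and ranks came from SciPy 1.17.1. They were exact for 4 against 4 and for correlations within groups, and used 100000 resamples for the other correlations. The scripts were tested on simulated data. The fit was repeated with other normalizations, filters, priors and arrays, and without each animal. All 8 member probes are named, with up to 3 genes per pathway list by the smallest F-test p and the 3 genes most correlated with each member. The members and lists were chosen with earlier results of these data known.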

Additional observations from a re-analysis of the deposited data

How the results depend on the processing

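No member probe passed an adjusted p of 0.05 with limma under any alternative, and 464 recomputed member differences kept their direction while 10 took the opposite sign. Rgs5 under estradiol benzoate against vehicle stayed between -0.60 and -0.38, with an unadjusted p under 0.05 in 22 of 23 alternatives and an adjusted p of 0.225 to 0.619. The bright Pdgfrb probe under estradiol benzoate against testosterone stayed between 0.41 and 0.53, also under 0.05 in 22 of 23, and against vehicle between 0.22 and 0.47, under 0.05 in 15 of 23. With AB arrays only, Tpm1 under estradiol benzoate against testosterone became 0.19. Leaving out 1 animal at a time gave -0.29 to 0.37 for the dim Pdgfrb probe under testosterone against vehicle, -0.0205 to 0.12 for Itga8 under estradiol benzoate against vehicle, and -0.25 to 0.0609 for Vcl under estradiol benzoate against testosterone, whose upper end was without testosterone animal 2. The causes of these changes were not tested.

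Of all probes, 0 passed for estradiol benzoate against vehicle, 5 for testosterone against vehicle and 3 for estradiol benzoate against testosterone. For estradiol benzoate against vehicle the count became 3 without dim probes, 2 with probes measured on all 24 arrays, 3 with an intensity trend and robust prior, 1 with AA arrays only, and 0 to 2 when each animal was left out. For testosterone against vehicle it became 8 with quantile normalization, 2 without dim probes, 3 with probes measured on all 24 arrays, 1 with the 2 groups alone, 3 with AA arrays only, and 0 to 45 when each animal was left out, the highest without vehicle animal 5. For estradiol benzoate against testosterone it became 0 with quantile normalization, 0 with the 2 groups alone, 1 with AA arrays only, 0 with AB arrays only, and 0 to 1 when each animal was left out. Member probes at an unadjusted p under 0.05 numbered 2, 0 and 1 in these comparisons. They became 1 in the first with the 2 groups alone and 1 with AA arrays only, 1 in the second with AA arrays only, and ran from 1 to 2, 0 to 1 and 1 to 2 without each animal. Of the 15 pairs, 0 passed, and 0 to 1 without each animal.

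Without estradiol benzoate animal 3 and vehicle animal 5 together, an alternative added after seeing the data, 0, 29 and 0 probes passed, 0, 0 and 2 member probes had an unadjusted p under 0.05 beside 8.52%, 11.1% and 3.37% of all probes, and the dim Pdgfrb probe differed by -0.0608 under testosterone against vehicle.

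Deviations of animals that shared a number between groups correlated at -0.115 to 0.297 over probes. Whether shared numbers mark paired animals cannot be told from these values, since differently numbered animals were not set beside them. With the number as a replicate block, 0 probes passed in each comparison, Cnn1 under estradiol benzoate against testosterone became 0.0026, and the dim Pdgfrb probe under testosterone against vehicle became -0.29. Under the block the dim Pdgfrb probe was 1.16 for estradiol benzoate against testosterone (limma's unadjusted p 0.0194, adjusted 0.733). It was 0.88 for estradiol benzoate against vehicle (limma's unadjusted p 0.0348, adjusted 0.386). The bright probe had an unadjusted p of 0.0622 and 0.0631 in these comparisons. Only testosterone animal 6 had the number 6, so the block took that animal out of the comparisons. Without that animal alone and with no block, the dim probe differed by 0.85 for estradiol benzoate against testosterone.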
